A study of Mus musculus with 4 samples.

Results

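The chemokine ligands Ccl1, Ccl3, Ccl4, Ccl5 and Xcl1 and the chemokine receptors Xcr1 and Ccr8 were followed across the immune cells of B16F10-OVA tumours, a mouse melanoma line that expresses the model antigen ovalbumin. The 7 genes were chosen by name, and all 7 were among the 27998 genes of the count matrices, of which 17455 had at least 1 UMI (unique molecular identifier, 1 captured transcript) in the cells kept. Tumours grew after subcutaneous injection of 1000000 cells into wild-type C57BL/6 mice or into miR-155 T cell conditional knockout mice (miR-155 TCKO), on the same strain, and live CD45+ cells were sorted at day 9 or day 12 after Accumax digestion. Tumours of more than 4 mice were pooled in each group, equal numbers of sorted cells went into 3' single-cell libraries, and there was 1 library for each genotype and day. The 4 groups were therefore wild-type day 9, knockout day 9, wild-type day 12 and knockout day 12. The labels name neither the promoter that drives the deletion in T cells nor the alleles of the wild-type mice, and the hosts keep all other immune cells. With 1 library a group, a difference within a day has no replicate check, and day cannot be told apart from preparation run.

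Ccl3 and Ccl4 are CC chemokines released on activation by cytotoxic lymphocytes and by myeloid cells, and Ccl3 acts through the receptor Ccr1. Ccl5, stored and released by effector and memory lymphocytes, acts through Ccr1 and Ccr3. Xcl1 (lymphotactin) is made by NK cells and activated CD8 T cells, and its receptor Xcr1 marks type 1 conventional dendritic cells (cDC1), which cross-present antigen to CD8 T cells. Ccl1 is the ligand of Ccr8, a receptor known on regulatory T cells within tumours. miR-155, which the knockout lacks in T cells, is a microRNA induced by antigen receptor and inflammatory signals that represses transcripts carrying sites for its seed.

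The mature miR-155-5p is shown, in the RefSeq sequence with the seed at bases 2 to 8 in capitals, because the seed is what was searched for in the members' transcripts. It lies on chr16:84714143-84714165 (GRCm38.p6, plus strand).
mmu-miR-155-5p: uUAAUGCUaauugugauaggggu
The seed's target letters AGCATTA (opposite bases 2 to 8), and the related letters GCATTAA and GCATTA, were absent from the longest annotated 3' UTR of all 7 members. Those UTRs were short for most members, 24 bases in Ccr8, 141 in Xcl1, 199 in Ccl5, 285 in Ccl1, 302 in Ccl4, 409 in Ccl3 and 3364 in Xcr1, against a median of 960 over all genes. Of 21037 genes with a 3' UTR, 12.6% held at least 1 of the 7-letter sites and 19.5% the 6-letter one. No match says only that these letters are not in these windows.

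The 3 CC ligands Ccl3, Ccl4 and Ccl5 lie together on mouse chromosome 11, with Ccl1 on the same chromosome. Ccl3 occupies chr11:83647844-83649355 (mm10, minus strand), Ccl4 chr11:83662584-83664683 (plus strand) 13228 bases away, and Ccl5 chr11:83525778-83530518 (minus strand) 117325 bases from Ccl3. The coding transcripts of Ccl1 lie at chr11:82176657-82179812 (minus strand). Xcl1 lies at chr1:164931644-164935527 (minus strand), where the processed transcript Gm20743 overlaps it on the other strand. The receptors Xcr1 (chr9:123852315-123862029, minus strand) and Ccr8 (chr9:120092114-120094906, plus strand) are both on chromosome 9. The coding transcripts of each ligand have up to 3 exons in the GENCODE annotation and those of each receptor up to 2.

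The promoters of Ccl1, Ccl3 and Xcl1 are shown because Xcl1 and Ccl3 were commoner in CD8 T cells with Ccl1 than without. With cells thinned to equal UMIs and all libraries pooled, Xcl1 was held by 59.1% of 44 cells with Ccl1 and 10.3% of 1288 without. Ccl3 was held by 59.1% and 24.9% of them. Xcl1 did not follow Ccl3 in wild-type day 9, as described under single cells. RefSeq promoters (GRCm38.p6, 250 bases before to 50 after the start) were matched for 5 of the 7 members, and Ccl4 and Ccl5 had no entry. The windows are chr11:82179763-82180062 for Ccl1, chr11:83649329-83649628 for Ccl3 and chr1:164935473-164935772 for Xcl1, all on the minus strand, with motif matches in capitals.
Ccl1: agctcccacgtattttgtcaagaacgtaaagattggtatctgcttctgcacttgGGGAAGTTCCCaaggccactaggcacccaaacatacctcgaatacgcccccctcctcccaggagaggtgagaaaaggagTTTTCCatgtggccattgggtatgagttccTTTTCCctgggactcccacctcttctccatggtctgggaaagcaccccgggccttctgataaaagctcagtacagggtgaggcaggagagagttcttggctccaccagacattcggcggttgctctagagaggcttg
Ccl3: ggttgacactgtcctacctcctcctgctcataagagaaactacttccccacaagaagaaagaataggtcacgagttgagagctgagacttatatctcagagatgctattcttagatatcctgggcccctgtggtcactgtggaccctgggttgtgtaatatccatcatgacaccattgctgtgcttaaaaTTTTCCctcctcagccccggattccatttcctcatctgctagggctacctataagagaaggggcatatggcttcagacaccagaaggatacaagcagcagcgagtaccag
Xcl1: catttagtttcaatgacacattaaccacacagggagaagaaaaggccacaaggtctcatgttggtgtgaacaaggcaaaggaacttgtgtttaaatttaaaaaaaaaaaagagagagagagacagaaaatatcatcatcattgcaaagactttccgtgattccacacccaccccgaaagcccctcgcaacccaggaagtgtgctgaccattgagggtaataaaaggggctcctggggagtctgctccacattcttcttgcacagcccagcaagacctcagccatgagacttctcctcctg
Both strands were searched for the letters GGG and TTCC with 3 bases of any kind between (kB-like, in 5.56% of 32851 promoters), TGANTCA (AP-1, 7.81%), AGGTGTGA (T-box, 1.28%), GGAAAA (NFAT core with A, 23.4%) and GAAA repeated after 2 bases of any kind (interferon-stimulated, 3.44%). The Ccl1 promoter held the kB-like letters at 196 and 195 bases before the start, 1 near-palindrome read on both strands, and GGAAAA on the minus strand at 117 and 87 bases before it. The Ccl3 promoter held GGAAAA once, 60 bases before the start. No motif of the 5 was found in the Xcl1, Xcr1 or Ccr8 windows. A match is a description of letters and not a site of binding.

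The libraries held 1778, 3749, 3684 and 2059 cell barcodes for wild-type day 9, knockout day 9, wild-type day 12 and knockout day 12, and 1752, 3625, 3566 and 2001 cells after filtering, with 18783490 to 33902064 UMIs a library. Pairs of libraries shared 4 to 16 barcodes. Cells were put into classes by marker gates that use none of the 7 genes. In the CD8 T cell class the 3 Cd3 genes found in the files summed to 2411 to 3496 CPM (UMIs per 1000000 UMIs of the class), and in the NK class to 26.5 to 48.1. The 6 NK markers summed to 2693 to 2964 CPM in NK cells and 118 to 273 in CD8 T cells. The wild-type day 9 library stood apart, since 701 of its cells were CD8 T cells with a median of 12605 UMIs a cell, against 347, 228 and 56 CD8 T cells with medians of 4439 to 4944 in the others. Its myeloid part was small, 249 monocytes or macrophages against 898 to 1793. Mir155hg, the host transcript of miR-155, had 92 UMIs (7.77 CPM, exact Poisson 95% interval 6.26 to 9.52) in all T cells of wild-type day 9 and 23 (7.66, 4.85 to 11.5) in those of wild-type day 12. It had 0 UMIs in T cells of both knockout libraries, which allows up to 0.677 CPM at day 9 and 2.51 at day 12, while knockout NK cells and mature dendritic cells held UMIs of it. Because reads come from transcript ends, they need not cover the deleted stretch, so this checks the labels and not the deletion itself.

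Ccl3 and Ccl4 had their highest mean level in CD8 T cells, Xcl1 in NK cells, Xcr1 in cDC1, Ccr8 in regulatory T cells and Ccl1 in CD8 T cells. Ccl5 did not follow its name as a lymphocyte chemokine: its highest level was in mature dendritic cells in each of the 4 libraries. Levels are CPM and means are over the 4 libraries, which differ in genotype and day.

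**Figure D1:**
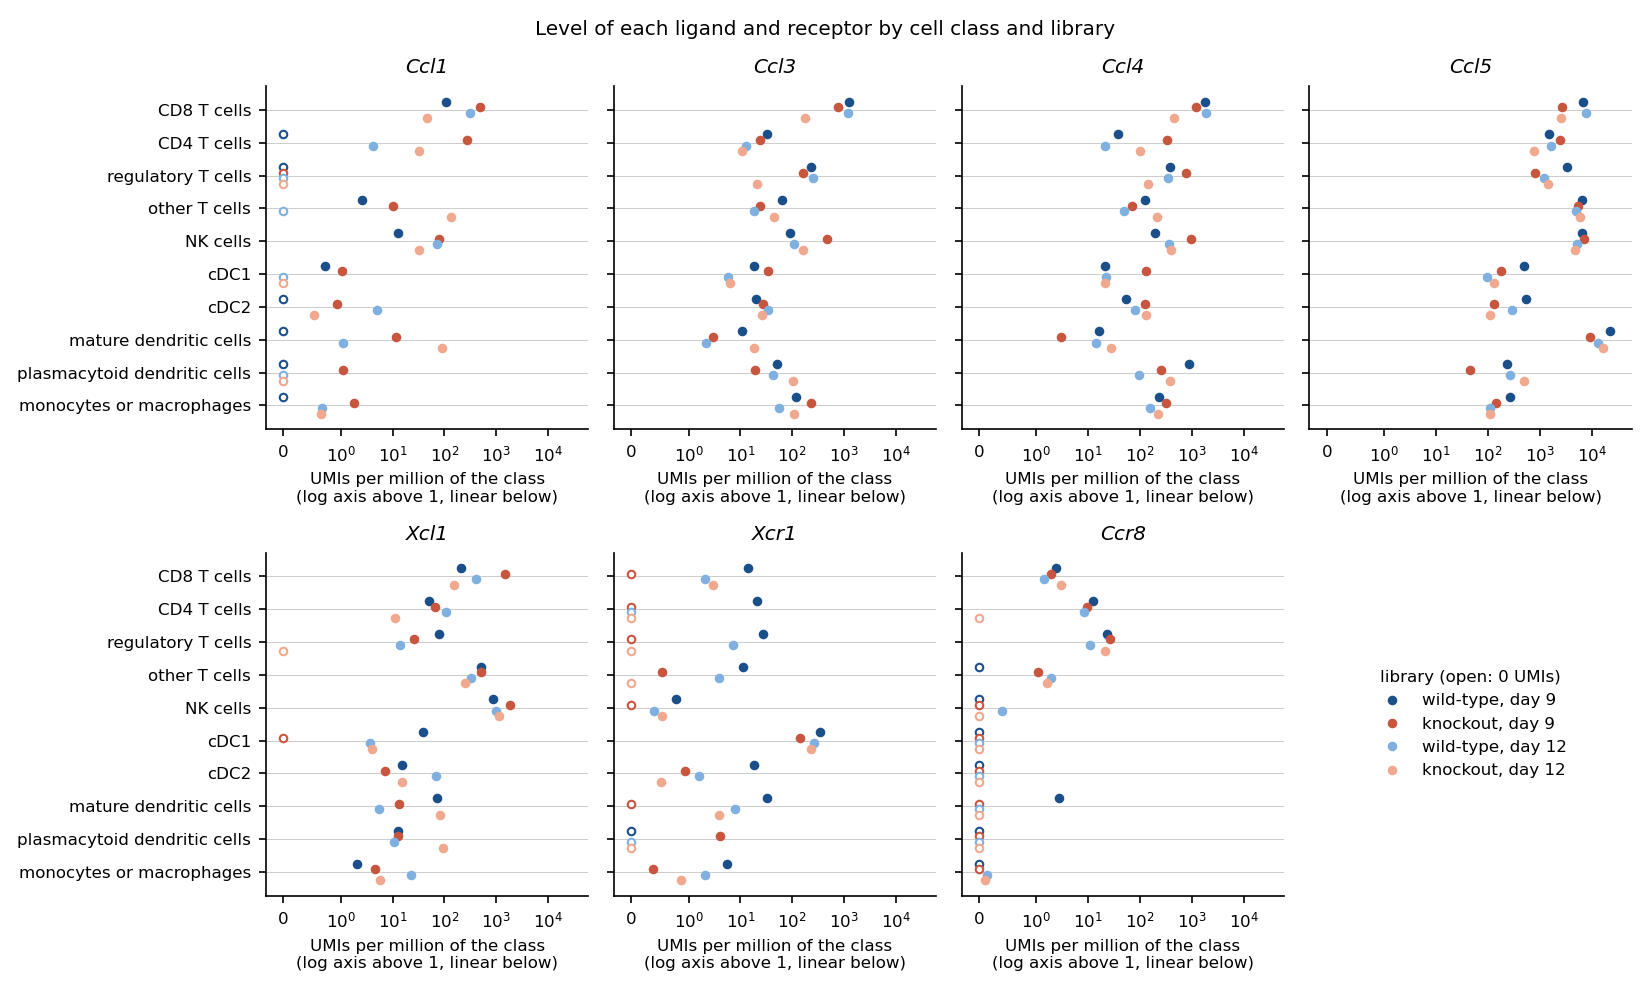
Level of each of the 7 genes (x axis, CPM, log above 1) in 10 cell classes (y axis); each point is 1 library and open points are 0 UMIs. Ccl5 is highest in mature dendritic cells (9308 to 22826 CPM), Xcr1 in cDC1 (140 to 336) and Xcl1 in NK cells in 4 of 4 libraries (874 to 1872).

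Ccl5 in mature dendritic cells, the activated and migratory state marked by Fscn1 and Ccr7, was 22826 CPM in wild-type day 9, 9308 in knockout day 9, 13071 in wild-type day 12 and 16784 in knockout day 12 (mean 15497 ± 5761, SD, n = 4 libraries). Every library's value exceeded the highest value of any other class, 7754 in CD8 T cells of wild-type day 12. After mature dendritic cells came NK cells (5860 ± 1034), other T cells, which are CD3+ cells below the gates on the CD4 and CD8 genes (5798 ± 649), and CD8 T cells (4900 ± 2724), and these did not differ beyond their spread. Mature dendritic cells also held the 5 cells with most Ccl5, up to 1712 UMIs or 14.3% of the UMIs of 1 cell. Their T cell markers summed to only 6.55 to 29.9 CPM. The Ccl5 of cDC1 (97.3 to 490 CPM), cDC2 and monocytes or macrophages (107 to 262) was far lower.

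Ccl3 in CD8 T cells was 1221, 777, 1209 and 177 CPM in wild-type day 9, knockout day 9, wild-type day 12 and knockout day 12 (mean 846 ± 491). NK cells (210 ± 179), regulatory T cells (165 ± 103) and monocytes or macrophages (128 ± 72.8) followed and overlapped each other. Ccl4 ran in the same order at its top, with 1757, 1200, 1842 and 445 CPM in CD8 T cells (mean 1311 ± 644), 472 ± 325 in NK cells, 410 ± 267 in regulatory T cells, 395 ± 332 in plasmacytoid dendritic cells and 230 ± 65.1 in monocytes or macrophages. The knockout day 12 CD8 T cells were lowest for both genes, and 56 cells stand behind them. B cells, which were few (5 to 14 a library), held 0 UMIs of either gene in 34 cells.

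Xcl1 in NK cells was 874, 1872, 1008 and 1139 CPM (mean 1223 ± 446), and in CD8 T cells 205, 1480, 416 and 153 CPM (mean 563 ± 621), in the same library order. NK cells were above CD8 T cells in each library. Other T cells held 398 ± 128 CPM, within the spread of CD8 T cells, and CD4 T cells 59.2 ± 40.8. Thinned to 2000 UMIs a cell, 0.762% to 1.34% of monocytes or macrophages, a class that should lack Xcl1, held a UMI of it, against 48.2% to 59.0% of NK cells. The 336 Xcl1 UMIs of wild-type day 12 monocytes or macrophages came mostly from 1 cell with 270, which also held 169 Ccl3 and 517 Ccl4 UMIs.

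Ccl1 in CD8 T cells was 108.5, 493, 308 and 47.2 CPM (mean 239 ± 203), in CD4 T cells 0, 274, 4.22 and 32.9, and in NK cells 12.6, 79.4, 73.5 and 33.0. The 274 CPM of knockout day 9 CD4 T cells came from 1 of 40 cells. The CD8 values spread over the CD4 and NK ranges, and in knockout day 12 other T cells (136 CPM, 85 UMIs all in 1 cell) and mature dendritic cells (89.1 CPM) were above CD8 T cells. Regulatory T cells held 0 UMIs in 4 of 4 libraries. The 136 Ccl1 UMIs of knockout day 12 mature dendritic cells were all in 1 cell.

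Xcr1 in cDC1 was 336, 140, 268 and 227 CPM (mean 243 ± 81.7), and no library of another class reached the lowest of these. Mature dendritic cells came next at 11.1 ± 14.7 CPM. The cDC1 gate was set after Xcr1 levels by class had been seen, and with a stricter gate on Clec9a the contrast with cDC2 below was nearly as large. CD8 T cells of wild-type day 9 held 150 Xcr1 UMIs (14.2 CPM) in a library where they were the largest class, and those of the other libraries 0 to 2.95 CPM. The 6 cDC1 markers summed to 102 CPM in those cells and 11.8 to 52.9 in the other libraries' CD8 T cells, and their part in the Xcr1 counts was not tested. NK cells, a class that should lack Xcr1, held 0 or 1 UMI a library.

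Ccr8 was close to the limit of detection. Regulatory T cells held 5, 7, 3 and 3 UMIs in 26, 23, 39 and 18 cells (22.7, 26.4, 10.6 and 21.2 CPM), CD4 T cells 0 to 12.5 CPM and CD8 T cells 1.37 to 2.95 CPM. Regulatory T cells were above CD8 T cells in each library, but 18 UMIs in all do not allow a comparison between genotypes. NK cells held 0, 0, 1 and 0 UMIs.

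In the pooled infiltrate the class holding most of a ligand's transcripts differed between libraries, and the part of the cell mix in this was not tested. CD8 T cells held 83.5% of the Ccl3 UMIs of wild-type day 9, 23.8% of knockout day 9, 52.0% of wild-type day 12 and 3.37% of knockout day 12. Monocytes or macrophages held 1.83%, 60%, 25.0% and 56.5% of them. The shares of Ccl4 were alike, 83.5%, 22.2%, 40.6% and 3.74% from CD8 T cells. For Ccl5, CD8 T cells held 65.5%, 15.1%, 24.3% and 2.04%, and mature dendritic cells 7.75%, 17.2%, 25.4% and 61.4%, so that at knockout day 12 a class of 169 cells held most Ccl5 transcripts. NK cells held 26.7%, 34.3%, 61.3% and 68.4% of Xcl1, and cDC1 57.8%, 69.9%, 79.7% and 85.3% of Xcr1. CD8 T cells held more Xcl1 UMIs than NK cells in both day 9 libraries and fewer in both day 12 libraries. Shares depend on how many cells of a class were sorted and on RNA per cell, and with 1 library a group they carry no test.

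**Figure D2:**
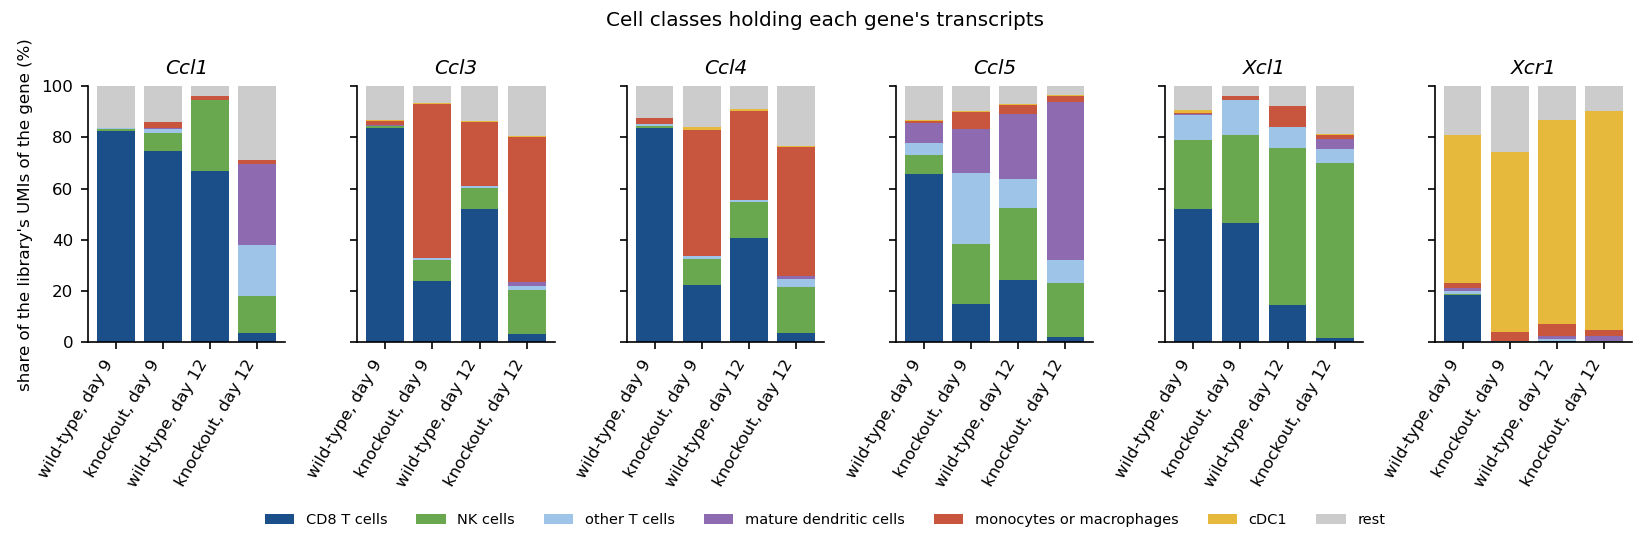
Share of each library's UMIs of a gene (y axis, %) held by each cell class (colours), for 6 genes and 4 libraries (x axis). CD8 T cells hold 83.5% of Ccl3 in wild-type day 9, monocytes or macrophages 60% in knockout day 9, and mature dendritic cells 61.4% of Ccl5 in knockout day 12.

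NK cells and CD8 T cells, both cytotoxic, were compared within libraries on the UMI sums of the 4 libraries with edgeR's quasi-likelihood test. Xcl1 was 2.85-fold higher in NK cells (log2 1.51 ± 0.34 SE, adjusted p = 0.020), and higher in 4 of 4 libraries. Ccl1 was lower in NK cells (log2 -2.27 ± 0.29, adjusted p = 8.6e-04), as were Ccl3 (-2.15 ± 0.56, adjusted p = 0.036) and Ccl4 (-1.61 ± 0.43, adjusted p = 0.042). Ccl5 was called in neither direction (0.34 ± 0.27, adjusted p = 0.51). Over all genes 10.6% were called, against 4 of the 5 members tested, and Xcr1 and Ccr8 had too few counts to be tested. With each cell's UMIs capped at 20, an alternative chosen after seeing the data, Ccl3 and Ccl4 lost their calls. Ccl3 was at -0.81 (adjusted p = 0.25) and Ccl4 at -0.40 (adjusted p = 0.54), while Ccl1 (-1.46, adjusted p = 0.0042) and Xcl1 (2.11, adjusted p = 4.4e-05) kept theirs. Ccl5 gained a call as higher in NK cells. Its capped levels were 2183, 3009, 2727 and 2006 CPM there, against 1146, 1377, 2367 and 1126 in CD8 T cells, in the library order used above. For Ccl5 the cap touched 47.2% to 55.0% of NK cells and 21.4% to 78.2% of CD8 T cells. The cap touched 18.8% (Ccl3) and 26.2% (Ccl4) of wild-type day 9 CD8 T cells and 1.79% to 5.26% of those of the other libraries. Without wild-type day 12 only Ccl1 was called (Xcl1 adjusted p = 0.10, Ccl3 0.24, Ccl4 0.26), and without wild-type day 9 Ccl3 (adjusted p = 0.055) and Ccl4 (0.052) were not.

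Genes known to act with these chemokines moved in both directions between the classes. Of 9 cytokines of activated lymphocytes tested, 3 were lower in NK cells, Ifng (log2 -2.27, adjusted p = 6.8e-04), Tnf (-1.58) and Lta (-1.07), and 3 higher, Fasl (1.36), Tnfsf14 (0.99) and Flt3l (0.64), a growth factor for dendritic cells. Their median was -0.51, against 0.0072 over all genes tested. Of 11 genes induced by the antigen receptor, 5 were lower in NK cells, among them the orphan nuclear receptors Nr4a1 (-1.74) and Nr4a2 (-1.98) and the factor Irf4 (-3.44), and 0 higher (median -0.76). Of 10 transcription factors tested 2 were called, and 5 of 8 tested genes of cDC1 were, in both directions.

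Thinned to 2000 UMIs a cell, Ccl3 was held by 41.8%, 7.49%, 11% and 5.36% of CD8 T cells in wild-type day 9, knockout day 9, wild-type day 12 and knockout day 12, and by 12.0%, 15.5%, 9.86% and 12.2% of NK cells. Unthinned, the CD8 shares were 66.9%, 12.4%, 16.2% and 5.36%. Ccl4 was held by 52.9%, 10.4%, 20.2% and 10.7% of CD8 T cells and 16.1% to 21.6% of NK cells. Wild-type day 9 CD8 T cells thus stood above the other libraries for both genes, beyond the counting intervals, whereas the NK cell shares lay within 9.86% to 15.5% for Ccl3. Xcl1 was held by 8.93% to 14.1% of CD8 T cells and 48.2% to 59.0% of NK cells. Ccl5 was held by 91.9%, 65.1%, 85.1% and 53.6% of CD8 T cells, so both knockout libraries were below both wild-type ones, and by 80.6% to 90.8% of NK cells.

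**Figure D3:**
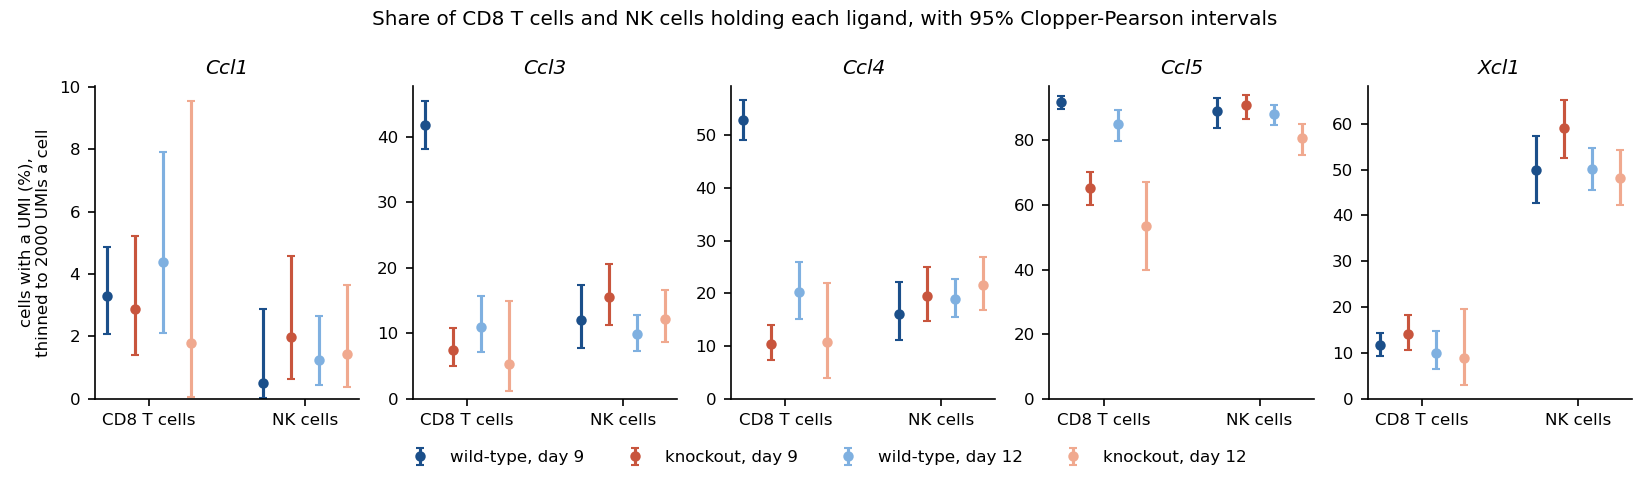
Share of CD8 T cells and of NK cells with at least 1 UMI of each ligand after thinning every cell to 2000 UMIs (y axis, %); points are libraries and bars are 95% Clopper-Pearson intervals, which cover counting error only. Ccl3 and Ccl4 stand high in wild-type day 9 CD8 T cells (41.8% and 52.9%), and Ccl5 is lower in the knockout CD8 T cells of both days (65.1% and 53.6%) than in the wild-type ones (91.9% and 85.1%).

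In single cells, most transcripts of Ccl1, Ccl3 and Ccl4 lay in few CD8 T cells in knockout day 9 and wild-type day 12, and those of Ccl3 and Ccl4 were spread more widely in wild-type day 9. Of the Ccl3 UMIs of CD8 T cells, 50% lay in 33 of 701 cells in wild-type day 9, in 2 of 347 in knockout day 9 and in 2 of 228 in wild-type day 12. A single knockout day 9 cell held 697 Ccl3, 1179 Ccl4 and 492 Xcl1 UMIs, the Ccl4 alone 8.75% of its transcripts. Another held 1626 Xcl1 UMIs, 8.07% of its 20161, of the 3133 Xcl1 UMIs of its class. Of the Ccl1 UMIs, 50% lay in 3, 1 and 2 CD8 T cells of those 3 libraries. Ccl5 was spread widely, with 50% of its UMIs in 128 of 701 cells of wild-type day 9 and 37 of 347 of knockout day 9. In NK cells 50% of the Xcl1 UMIs lay in 17, 11, 23 and 10 cells of the 4 libraries, and in cDC1 50% of the Xcr1 UMIs in 23, 7, 32 and 16 cells, with at most 20 UMIs in a cell.

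**Figure D4:**
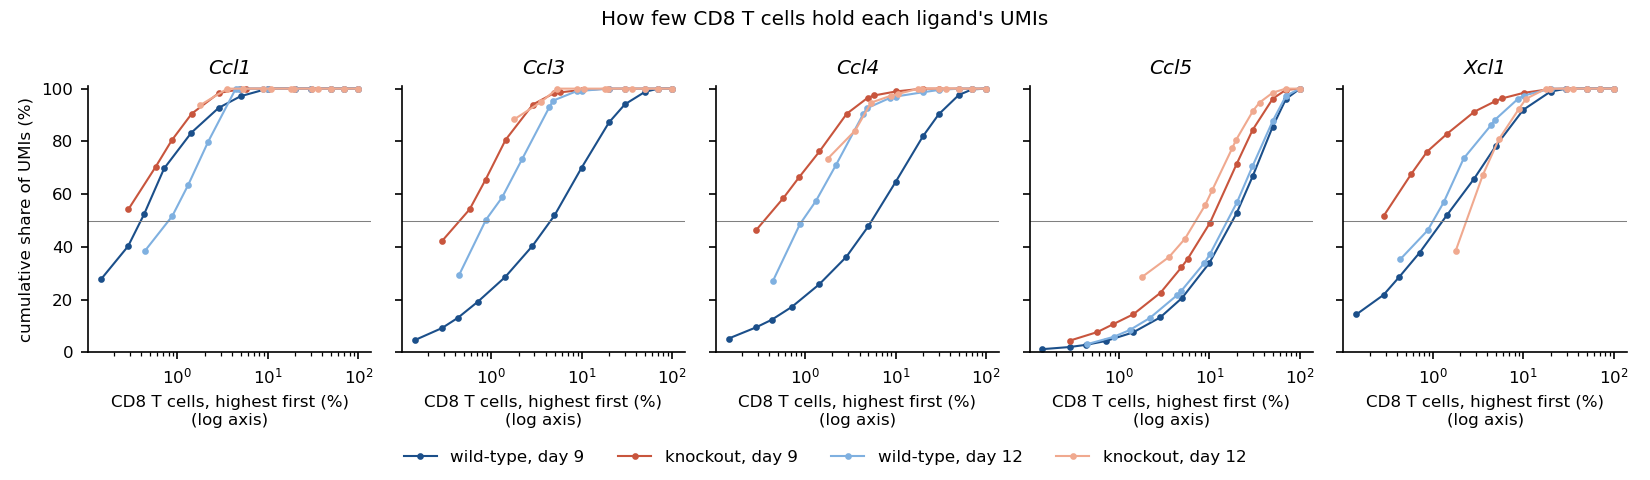
Cumulative share of the UMIs of each ligand (y axis, %) over CD8 T cells ranked from the highest down (x axis, % of cells, log scale), 1 line per library. The 50% line is crossed by 2 cells for Ccl3 in knockout day 9 and by 33 cells in wild-type day 9, while Ccl5 needs 128 and 37 to 38 cells in wild-type day 9 and the next 2 libraries.

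Ccl4 was found in a larger share of the cells with Ccl3 than of the cells without it. In wild-type day 9 CD8 T cells, thinned, Ccl4 was found in 81.2% (95% interval 76.3 to 85.5) of 293 cells with Ccl3 and in 32.6% (28.1 to 37.4) of 408 without. The shares were 53.8% and 6.85% in knockout day 9 and 68.0% and 14.3% in wild-type day 12. In NK cells they were 43.5% to 55.9% with Ccl3 and 12.4% to 16.8% without, in the 4 libraries. Xcl1 did not follow Ccl3 in wild-type day 9 CD8 T cells, with 11.3% against 12.0%, but was found in 34.6% against 12.5% in knockout day 9 and 32.0% against 7.39% in wild-type day 12. It followed Ccl1 in each of the 3 libraries with enough cells: 52.2% of 23 Ccl1 cells against 10.3% in wild-type day 9, 60% of 10 against 12.8% in knockout day 9 and 70% of 10 against 7.34% in wild-type day 12. Cells that hold more UMIs in total were thinned to the same number, and cells of 1 library share its preparation.

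The 44 CD8 T cells with Ccl1 after thinning, against 1288 without, held the costimulatory receptor Tnfrsf9 (4-1BB) in 65.9% against 20%, Tnfrsf4 (OX40) in 40.9% against 9.24%, Irf8 in 52.3% against 20.8%, and Ccl4 in 77.3% against 33.0%. These genes were picked for the size of the difference in the same cells, so the values are a description. Across 24 class sums (6 classes in 4 libraries, log scale), the gene most like Ccl3 was Ccl4 (Pearson's r 0.97) and the gene most like Ccl4 was Ccl3. Ccl1 was most like Ifng (r 0.84), Ccl5 most like Cd247 (0.98), Xcl1 most like Rad54l2 (0.94) and Xcr1 most like Gcsam (0.94). The sums share libraries and classes, so these r values describe where genes are expressed.

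CD8 T cells were also grouped by clusters made from all genes but the 7 members, and Ccl3 and Ccl4 were held by the largest shares of cells in 2 of the 5 clusters described. Cluster 1 had Gzmb, Nkg7 and the histone gene Hist1h2ap among its top genes, and cluster 4 had Nkg7, Gzmb and Ifng. In these clusters, 1 and 4, thinned shares with Ccl3 were 50.3% and 47.9% in wild-type day 9 and 45.5% and 47.8% in knockout day 9. Shares with Ccl4 were 57.1% and 64.2%, and 72.7% and 60.9%. Other clusters held such cells too, with Ccl4 in 19.6% and 14.0% of the cells of cluster 6 in those libraries. Those 2 clusters made up 41.9% and 37.8% of wild-type day 9 CD8 T cells, 3.17% and 6.63% of knockout day 9, 18.0% and 21.5% of wild-type day 12 and 3.57% and 1.79% of knockout day 12. Cluster 19 had Cd8b1, Dapl1 and Ltb among its top genes. It made up 59.7% and 60.7% of the CD8 T cells of the knockout libraries and 5.99% and 21.9% of the wild-type ones. Ccl3 was held by 2.38% of its wild-type day 9 cells and 2.90% of its knockout day 9 cells. The day 9 shares with Ccl3 in clusters 1 and 4 thus lay close together, with 11 and 23 knockout cells behind them, while those of the whole class were 41.8% and 7.49%. Levels of Ccl3 in those clusters were 1576 and 4776 CPM in knockout day 9 against 1148 and 1714 in wild-type day 9. In wild-type day 12 only 19.5% and 24.5% of their cells held Ccl3, and 29.3% and 38.8% held Ccl4. The part of the cluster mix in the class differences was not tested. Xcl1 in clusters 1 and 4 was held by 45.5% and 56.5% of the knockout day 9 cells against 10.5% and 11.3% in wild-type day 9. Ccl5 was held by 63.6% and 69.6% of the cells of clusters 1 and 4 in knockout day 9 against 94.2% and 93.6%. The day 9 shares lay closer in clusters 6, 19 and 20, at 90.7%, 52.2% and 88.9% in the knockout against 90.2%, 61.9% and 92.9%. Ccl5 levels there were 8500, 1395 and 4556 CPM against 11083, 2186 and 7125. Dividing-cell markers summed to 535 and 418 CPM in the wild-type CD8 T cells and 77.5 and 73.7 in the knockout ones, and their part in the ligand levels was not tested.

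**Figure D5:**
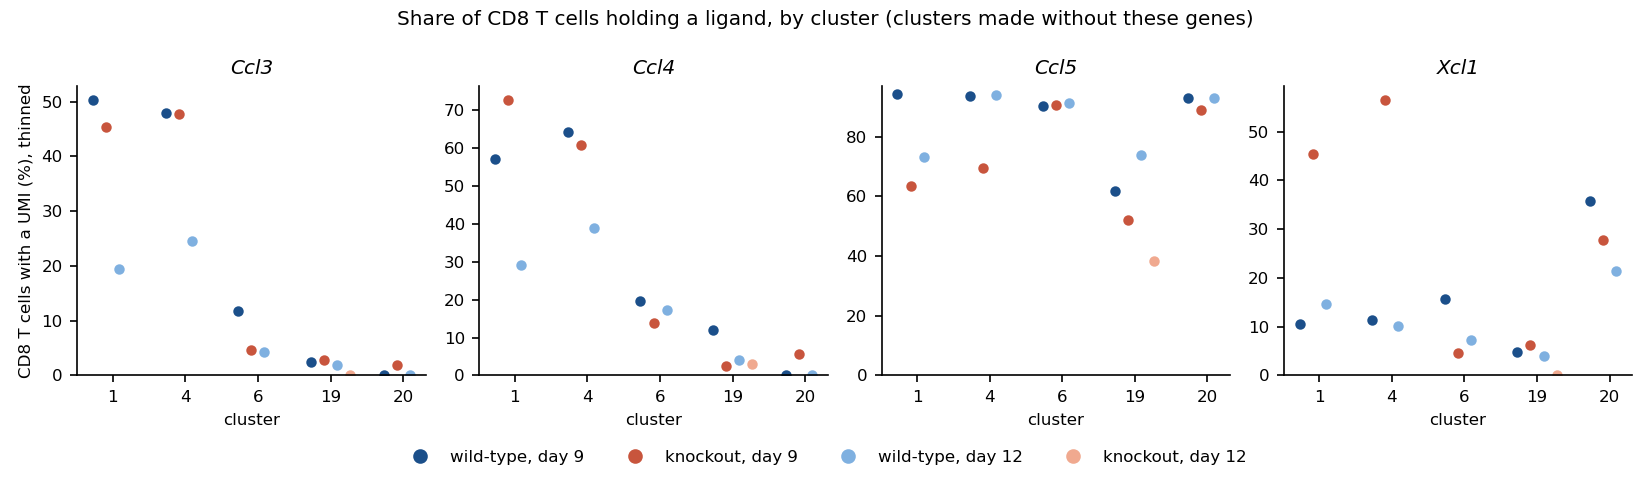
Share of CD8 T cells with a UMI of Ccl3, Ccl4, Ccl5 or Xcl1 after thinning (y axis, %) in 5 clusters (x axis), for each library with enough cells. In clusters 1 and 4 the day 9 libraries have like shares with Ccl3 (45.5% to 50.3%), while Xcl1 is higher in knockout day 9 (45.5% and 56.5%).

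The knockout was compared with the wild type over both days by edgeR, with day as a term and 1 residual degree of freedom, so that spread is borrowed from other genes. In CD8 T cells Ccl5 was lower in the knockout, at 2630 and 2511 CPM against 6705 and 7754 (log2 -1.35 ± 0.24 SE, adjusted p = 0.023), lower on 2 of 2 days. It was the 1 member called of 5 tested, where 4.26% of all genes were called. Within a day the ratio was 0.392 (counting interval 0.382 to 0.403) at day 9 and 0.324 (0.302 to 0.347) at day 12. Without knockout day 9 the adjusted p was 0.23 and without knockout day 12 it was 0.080, both with no day term. Capped at 20 UMIs a cell, which most wild-type CD8 T cells exceed for Ccl5 (78.2% and 64.5%), the difference was -0.25 (adjusted p = 0.73).

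Ccl3 was lower in knockout CD8 T cells on both days, but its log2 change of -1.45 ± 0.45 did not pass (adjusted p = 0.12), nor did Ccl4 (-1.12 ± 0.35, adjusted p = 0.13). With the cap at 20 Ccl3 was called lower (-1.32, adjusted p = 0.014), and it was also called with cells up to a mitochondrial share of 5% (-1.55, adjusted p = 0.022) and with clusters in place of gates (-1.23, adjusted p = 0.015). Xcl1 (1.09 ± 0.93, adjusted p = 0.58) and Ccl1 (0.48 ± 0.96, adjusted p = 0.84) had no call, their day 9 and day 12 ratios lying on opposite sides of 1. Among other genes of the pathway, Nr4a1 (1.46, adjusted p = 0.029) and Cd69 (1.54, adjusted p = 0.015) were higher, 2 of 11 genes induced by the antigen receptor. None of 9 cytokines, 10 transcription factors or 8 cDC1 genes was called in edgeR there. Monocyte or macrophage markers, a sum that includes Ly6c2, which CD8 T cells also express, summed to 1724 to 2124 CPM in the CD8 T cells of all 4 libraries, and Lyz2 alone was at 82.9 to 284 CPM. Neutrophil markers summed to 569 CPM in those of knockout day 12, against 0.472 to 4.81 in the others, and their part in the differences was not tested.

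In NK cells, where the label places no deletion, edgeR called none of the 5 members tested and 0.0506% of all genes. An unadjusted p under 0.05 was found for 3 of those members and for 353 of the 7906 genes tested. Ccl3 was higher in knockout NK cells on both days, 474 against 89.0 CPM at day 9 and 165 against 110 at day 12 (log2 1.46 ± 0.36, unadjusted p = 0.0029 and adjusted p = 0.97 by edgeR). A single cell held 406 of the 585 UMIs at knockout day 9. Ccl4 (1.16 ± 0.43, adjusted p = 1.0) and Xcl1 (0.63 ± 0.23, adjusted p = 1.0) were also above the wild type on both days, and Ccl5 was at -0.01 ± 0.19. When doublets were kept, Ccl3 and Ccl4 were called higher (1.46, adjusted p = 2.4e-12, and 1.16, adjusted p = 6.8e-07), and with each cell capped at 20 UMIs they were not (0.78, adjusted p = 0.74, and 0.61, adjusted p = 1.0). Keeping doublets left the log2 changes as in the main fit and hardly changed the cells, 192, 252, 490 and 278 against 192, 251, 487 and 278. These adjusted p-values rest on spread borrowed from other genes, and why they fell was not tested.

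Monocytes or macrophages held more Ccl3 in the knockout, 230 against 118 CPM at day 9 and 109 against 56.6 at day 12 (log2 0.94 ± 0.15, adjusted p = 0.023), with ratios of 1.95 (1.73 to 2.21) and 1.93 (1.76 to 2.12). The spread of the class over clusters differed by library. At day 9 the largest shares of knockout cells lay in clusters 22 (24.0%) and 12 (18.8%), and of wild-type cells in clusters 23 (22.1%) and 14 (21.7%). At day 12 the largest share lay in cluster 11 in the knockout (29.8%) and in cluster 23 in the wild type (33.1%). In the 2 clusters with at least 20 cells of both day 9 libraries Ccl3 was lower in the knockout, 96.2 against 163 CPM in cluster 9 and 45.9 against 78.3 in cluster 16. At day 12 it was higher in the knockout in 9 of 12 such clusters and lower in clusters 12, 23 and 31. It was the 1 member called of 5 tested, and 1.26% of all genes were called. Without the day term the adjusted p was 1.0 (log2 0.96), and in fits without 1 library and with no day term, left out in turn, no member was called. Ccl4 (0.46 ± 0.15, adjusted p = 0.29), Ccl5 (-0.47 ± 0.21, adjusted p = 0.50) Xcl1 (-1.13 ± 0.50, adjusted p = 0.49) and Xcr1 (-2.47 ± 0.70, adjusted p = 0.19) were not called. Ccrl2, an atypical chemokine receptor, was higher in the knockout (0.87, adjusted p = 0.030), the 1 called of 6 receptors and related ligands, and Nr4a1 (0.96, adjusted p = 0.037) the 1 of 10 genes induced by the antigen receptor.

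In cDC1 edgeR called none of 4 members tested between genotypes and 0.0414% of all genes. An unadjusted p under 0.05 was found for 0 of those members and for 337 of the 7248 genes tested. Ccl4 was at 1.36 ± 0.58, with 91 of its 127 UMIs of knockout day 9 in 1 cell, Ccl3 at 0.63 ± 0.41 and Ccl5 at -0.54 ± 0.47. Xcr1 was lower in the knockout on both days, 140 against 336 CPM and 227 against 268 (log2 -0.75 ± 0.32, adjusted p = 0.97 by edgeR), with ratios of 0.418 (0.342 to 0.507) and 0.846 (0.730 to 0.980). The knockout day 9 cDC1 were 55 cells, and melanoma markers summed to 2834 CPM in them against 2.16 to 7.19 in the other libraries, whose part in the ratio was not tested. Thinned, 40.2%, 23.6%, 36.1% and 33.0% of cDC1 held Xcr1.

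Between days, over both genotypes, monocytes or macrophages had less Ccl3 at day 12 (log2 -1.05 ± 0.15, adjusted p = 0.0054), lower in 2 of 2 genotypes, the 1 member called of 5 tested where 6% of all genes were called. Clusters changed with day too, and in those with at least 20 cells on both days Ccl3 was lower at day 12 in 4 of 5 in the wild type and in 3 of 7 in the knockout, being higher for instance in knockout cluster 9 (253 against 96.2 CPM). In the same cells the ligands Ccl8 (3.54, adjusted p = 7.6e-04) and Ccl6 (0.91, adjusted p = 0.015) rose and Ccrl2 fell (-0.68, adjusted p = 0.031), of 6 receptors and related ligands tested. Tnf fell (-1.02, adjusted p = 0.0087), the 1 called of 8 cytokines, and Nr4a1 fell (-1.64, adjusted p = 0.0017), the 1 of 10 genes induced by the antigen receptor. No member was called between days by edgeR in CD8 T cells, where 0.11% of all genes were called and 737 had an unadjusted p under 0.05, or in NK cells, with 1.66% and 1350. In cDC1 0% were called, with 491 genes at an unadjusted p under 0.05. Ccl3 in cDC1 was at -1.95 ± 0.41 (adjusted p = 0.60). Ccl8 was also higher at day 12 in CD8 T cells and NK cells (4.80 and 4.67), classes in which Lyz2, an abundant macrophage gene, was at 49.6 to 284 CPM against 18083 to 26244 in monocytes or macrophages.

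Among dendritic cells Xcr1 separated cDC1 from cDC2, with 0.53 to 18.1 CPM in cDC2 (log2 6.17 ± 0.45 in edgeR, adjusted p = 4.5e-05, higher in 4 of 4 libraries). With the stricter gate the difference was 6.02. Ccl4 was lower in cDC1 (-1.33 ± 0.35, adjusted p = 0.027), but not called with the stricter gate (-1.08, adjusted p = 0.090), without wild-type day 9 (0.11), wild-type day 12 (0.16) or knockout day 12 (0.10). Ccl3 (-0.97), Ccl5 (-0.25) and Xcl1 (-1.52) were not called, so 2 of 5 members tested were, where 20.3% of all genes were called. All 6 receptors and related ligands tested were lower in cDC1, with a median of -2.49 against 0.0020 over all genes. Among them Ccr1 was at 2.88 to 54.0 CPM against 27.7 to 171 in cDC2 (-2.61, adjusted p = 2.9e-04). Monocytes or macrophages held the most Ccr1, 193 to 483 CPM. All 10 other genes of cDC1 tested were higher, such as Gcsam (7.28), Irf8 (3.36) and Batf3 (1.11), with Wdfy4 and Itgae also serving in the gate. Of 11 antigen receptor induced genes 4 were lower and 1 higher, of 6 cytokines 2 were lower, and of 9 transcription factors 3 were lower.

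Regulatory T cells held more Ccl3 than other CD4 T cells, 231, 158, 248 and 21.2 CPM against 33.3, 23.6, 12.6 and 11 (log2 2.97 ± 0.34, adjusted p = 0.0021 by edgeR), higher in 4 of 4 libraries. Ccl4 was also higher, 377, 780, 344 and 141 CPM against 37.5, 326, 21.1 and 98.7 (2.04 ± 0.43, adjusted p = 0.034). Ccl5 (-0.09 ± 0.39, adjusted p = 0.95) and Xcl1 (-1.18 ± 0.55, adjusted p = 0.31) were not called, which makes 2 of 4 members tested, and 3.92% of all genes were called. Only 18 to 39 regulatory T cells a library stand behind these values. The knockout day 12 levels of Ccl3 rest on no more than 3 UMIs in either class. In wild-type day 12, 1 of 39 regulatory T cells held over 20 Ccl3 UMIs, and the cap at 20 left 57.1% of those of the class. The Ccl4 call was lost without wild-type day 9 (adjusted p = 0.089), knockout day 9 (0.076) or wild-type day 12 (0.15), and Ccl3 kept its call without each library in turn. Tnfrsf9 was higher in regulatory T cells (2.98), the 1 called of 4 antigen receptor induced genes. Ccr8 had too few UMIs to be tested.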

How the data were processed

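The deposited matrices hold raw UMI counts, with genes in rows and cells in columns, from Cell Ranger 2.0.2 on mm10 per the submitters' processing notes, and the authors deposited no cell annotation used here. Rows were found by gene symbol, and all 7 genes were found. Cells with under 200 genes, over 10% mitochondrial or over 5% haemoglobin UMIs were dropped. Scrublet in scanpy 1.11.5 marked 1 to 22 doublets a library at its own threshold, so the highest scores were removed up to the rate expected from the number of barcodes (25, 112, 109 and 34 removed).

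Classes came from gates on marker genes. Gate thresholds were revised after seeing the data, with levels of the 7 genes by class already seen. The cDC1 gate was widened to Clec9a or Cadm1 and 3 UMIs because the stricter one gave 48 cells in knockout day 9, under the 50 required. The T cell receptor constant genes Trac and Trbc2 were not found by symbol and not used here. Clusters (Leiden, resolution 2, 2000 variable genes without the 7 members, 30 components) describe CD8 T cells and are an alternative to the gates. The members and gene lists were chosen with earlier results of these data known.

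Counts were summed per class and library and tested with edgeR 4.0.16 (TMM, filterByExpr, quasi-likelihood, Benjamini-Hochberg over all genes, threshold 0.05). An SE is the log2 fold change over the root of F. The procedure was tested on simulated data. Intervals on levels are exact Poisson, on shares Clopper-Pearson at 95%, and a count of 0 is given with the 3 counts it allows. All cover counting error only. Shares of cells were also taken after thinning each cell to 2000 UMIs. No cell was shallower.

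Alternatives were DESeq2 size factors, the DESeq2 1.42.0 Wald test, no filter on low counts, no doublet removal, mitochondrial share up to 5%, clusters in place of gates, no day term, and each library left out. Added after seeing the data were the stricter cDC1 gate, a cap of 20 UMIs of a member per cell, and leaving out a library with no day term. Which single-day ratios and pairs of genes the alternatives cover was narrowed to those reported after their values were seen. All 7 members are named, genes of the pathway lists are named where a result turns on them (1 is not reported here), and the genes most alike were those with the highest Pearson correlation of log2(CPM + 1). Sequences are from RefSeq (GRCm38.p6), positions from GENCODE on mm10, the same assembly.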

Additional observations from a re-analysis of the deposited data

Results flagged for a closer look

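Among CD8 T cells, NK cells, monocytes or macrophages and cDC1, in 5 cases the knockout stood above the wild type on 1 day and below it on the other, with counting intervals that leave out a ratio of 1 on both days. Values outside these classes turned as well, such as Ccl5 in mature dendritic cells (9308 against 22826 CPM, then 16784 against 13071) and Ccl4 in regulatory T cells (780 against 377 CPM, then 141 against 344). With 1 library for each genotype and day, the difference between the days was not tested, and intervals cover counting error only.

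Xcl1 in CD8 T cells had a knockout to wild-type ratio of 7.23 (6.84 to 7.64) at day 9 and 0.369 (0.272 to 0.490) at day 12. A single knockout day 9 cell held 1626 of the 3133 UMIs. The thinned shares of cells with Xcl1 were 14.1% against 11.7% at day 9 and 8.93% against 10.1% at day 12.

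Ccl1 in CD8 T cells had ratios of 4.54 (4.17 to 4.95) and 0.153 (0.0866 to 0.251), with thinned shares of 2.88% against 3.28% and 1.79% against 4.39%. A single knockout day 9 cell held 567 of the 1044 UMIs, and without cells holding UMIs of the dividing-cell markers the day 9 log2 ratio was -0.019.

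Ccl1 in NK cells had ratios of 6.30 (3.69 to 11.5) and 0.450 (0.331 to 0.604), with 16 UMIs in wild-type day 9. Its thinned shares did not turn, at 1.99% against 0.521% and 1.44% against 1.23%. In wild-type day 12, 2 NK cells held over 20 UMIs, and the cap at 20 left 35.5% of the UMIs of the class.

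Ccl5 in NK cells had ratios of 1.07 (1.04 to 1.11) and 0.926 (0.901 to 0.951), both near 1. Ccl5 in cDC1 had ratios of 0.360 (0.302 to 0.426) and 1.37 (1.11 to 1.70), and 1 to 3 cells held 50% of its UMIs in each library.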

How the results depend on the processing

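Of the settings tried on members called in the comparisons, leaving out a library apart, 70 kept direction and call and 9 kept direction only. The causes were not tested. The count of members called in the genotype effect in CD8 T cells (1) was 5 with no filter on low counts and 3 with clusters in place of gates, with doublets kept and with mitochondrial share up to 5%. In NK cells (0) it was 4 with clusters and 2 with doublets kept, in monocytes or macrophages (1) 3 with no filter and 0 with no day term, and in cDC1 (0) 2 with no filter. For the day effect it was 1 in CD8 T cells with no filter, 1 in NK cells with clusters and with doublets kept, 2 in cDC1 with no filter, and in monocytes or macrophages (1) 2 with DESeq2 size factors and with the cap at 20 UMIs, and 4 with no filter. NK cells against CD8 T cells (4) gave 2 with the DESeq2 Wald test, and cDC1 against cDC2 (2) gave 4 with no filter and 1 with the stricter gate. Regulatory T cells could not be compared with clusters in place of gates. The count of all genes called moved as well, in 9 comparisons with no filter, 5 with clusters and 6 with doublets kept. It stayed alike in 2, 5 and 5, so the member counts are not to be read apart from it.

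Some log2 changes turned sign. For genotype, Ccl1 in CD8 T cells was -0.10 with the DESeq2 Wald test, Ccl5 in NK cells 0.053 with clusters, 0.0055 with no day term and 0.0014 with the cap, Xcl1 in monocytes or macrophages 0.29 with the cap, and Ccl4 in cDC1 -0.20 with clusters. For day, the cap gave 0.81 for Ccl1 and 0.20 for Xcl1 in CD8 T cells, and -0.42 for Ccl1, 0.00099 for Ccl3 and 0.042 for Ccl4 in NK cells. Clusters gave 0.070 for Ccl4 and 0.073 for Xcl1 in NK cells, and 0.37 for Ccl4 and -0.28 for Xcr1 in cDC1. Xcr1 in monocytes or macrophages was 0.47 with doublets kept. Single-day log2 ratios turned for Ccl1 in CD8 T cells at day 9 (-0.019 without dividing cells), Ccl5 there at day 9 (0.26 with the cap), and Ccl5 in NK cells as mean UMIs per cell (-0.32 at day 9, 0.24 at day 12). With clusters they turned for Ccl1 in NK cells at day 12 (1.23), and in cDC1 for Ccl3 (-2.56) and Ccl4 (-0.24) at day 9 and Ccl5 at day 12 (-0.43, and -0.33 with doublets kept). Xcl1 in NK cells at day 12 was -0.18 with the cap, and Xcr1 in monocytes or macrophages at day 12 was 0.14 with doublets kept.

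Leaving out each library in turn called 1 to 4 members in NK cells against CD8 T cells, 1 to 3 in cDC1 against cDC2 and 1 to 2 in regulatory T cells. Over all genes these fits called 419 to 955, 842 to 2124 and 26 to 185. For genotype such a fit has no day term and leaves 1 library in a group, so ranges of log2 changes are given here. Genotype log2 changes ranged from -2.01 to 1.63 for Ccl1 and -0.89 to 2.41 for Xcl1 in CD8 T cells. In NK cells they ranged from -0.47 to 2.11 for Ccl1 (-0.41 without wild-type day 9) and -0.29 to 0.26 for Ccl5. In cDC1 they ranged from -0.77 to 1.70 for Ccl3, -0.0031 to 2.50 for Ccl4 and -1.69 to 0.63 for Ccl5. In monocytes or macrophages they ranged from -1.09 to 0.17 for Ccl5 and -2.15 to 1.28 for Xcl1. Ccl5 ranged from -0.47 to 0.18 in cDC1 against cDC2 and -0.52 to 0.47 in regulatory T cells against other CD4 T cells. No paired analysis was possible because each genotype and day has 1 library, so replicate numbers pair nothing between genotypes or days. The comparisons of 2 classes are within libraries, with the library as a term. Depth limits Ccr8 throughout, and the 56 CD8 T cells of knockout day 12.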
